A study of Mus musculus with 18 samples.

Results

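Casein, whey and other milk genes were described across 18 mouse mammary tumors. The group held 8 genes taken by symbol: the caseins Csn1s1, Csn1s2a, Csn1s2b, Csn2 and Csn3, the whey genes Wap and Lalba, and Glycam1. No measured value entered the selection by symbol, but the list was drawn up with earlier results of these data known. They are 8 of the 55450 genes in the tables, and all 8 passed the filter on low counts that left 18475 genes for testing. RNA was sequenced from freshly isolated spontaneous tumors with no treatment, and the series design gives each tumor its own mouse. All 18 mice carried MMTV-Cre(+), a transgene whose mouse mammary tumor virus promoter drives Cre recombinase mainly in mammary epithelium, and 1 H1047R allele of the gene the labels spell Pikca (Pik3ca, the catalytic subunit of a PI3 kinase). They differed in Cbfb, the partner subunit of the RUNX transcription factors: Cbfb(het) was the label of 14 tumors, Cbfb(wt) of 3 and Cbfb(homo) of a single one. Cbfb RNA itself was at 12.8 to 71.1 TPM in Cbfb(het), 12.03 to 35.7 TPM in Cbfb(wt) and 10.8 TPM in the Cbfb(homo) tumor, so the Cbfb(het) and Cbfb(wt) ranges overlapped. Which part of Cbfb was altered is not labelled. No age, litter, batch or reproductive state is labelled, and no group without MMTV-Cre or without the H1047R allele was analysed here. Tumors are numbered within a genotype only to name them.

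Caseins are the main proteins of mouse milk. The calcium-sensitive caseins (alpha-S1 from Csn1s1, beta from Csn2, and the alpha-S2 forms from Csn1s2a and Csn1s2b) are packed into micelles that kappa-casein, from Csn3, holds in solution. Wap encodes whey acidic protein, Lalba encodes alpha-lactalbumin, the subunit that makes lactose synthesis possible, and Glycam1 encodes a mucin-like protein that is secreted into milk and is also known from high endothelial venules of lymph nodes. In the gland, prolactin acts through its receptor, JAK2 and STAT5 to switch these genes on as alveolar cells mature, with glucocorticoid and the factor ELF5 as further inputs.

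In GENCODE M21 annotation of GRCm38 the 5 casein genes are protein-coding neighbours on chromosome 5. Csn1s1 (ENSMUSG00000070702.9, 87666208 to 87682578, plus strand) is followed by Csn2 (87692624 to 87699630, minus strand), Csn1s2a (87774567 to 87788797, plus), Csn1s2b (87808082 to 87824426, plus) and Csn3 (87925579 to 87932665, plus). Wap lies on chromosome 11 (6635482 to 6638637, minus strand). Lalba (98480400 to 98482721) and Glycam1 (103562759 to 103565081) both lie on the minus strand of chromosome 15. The RefSeq promoter table of GRCm38.p6 held 6 of the 8 genes, and Csn1s2b and Csn3 had no entry. The 250 bases before the start were searched on both strands for TTCNNNGAA, the palindrome that STAT5 is known to bind, because the factor links prolactin to these genes. It was present in 3 of the 6: Csn1s1, Csn2 and Glycam1. In Csn2 (window chr5:87699426-87699675, minus strand) the match reads TTCTTGGAA. The RefSeq start of Csn2 lies inside the longer GENCODE gene model, so 205 of its 250 bases, the match among them, are annotated there as an untranslated region, and the window is not shown. The other 2 windows overlap no GENCODE exon and are shown 5′ to 3′ on the strand of the gene with the matching bases in capitals. Csn1s1 is chr5:87665958-87666207 on the plus strand and Glycam1 is chr15:103565082-103565331 on the minus strand.
Csn1s1: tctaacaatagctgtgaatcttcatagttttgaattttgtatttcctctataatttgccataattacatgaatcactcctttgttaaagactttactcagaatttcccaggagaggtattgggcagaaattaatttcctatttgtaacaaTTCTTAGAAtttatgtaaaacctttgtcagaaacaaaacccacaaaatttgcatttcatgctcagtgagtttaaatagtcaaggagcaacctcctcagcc
Glycam1: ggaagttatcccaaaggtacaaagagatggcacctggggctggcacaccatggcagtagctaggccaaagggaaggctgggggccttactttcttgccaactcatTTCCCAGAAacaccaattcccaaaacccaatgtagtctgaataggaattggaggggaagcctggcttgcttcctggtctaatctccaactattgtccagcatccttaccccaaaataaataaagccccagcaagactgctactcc
Counted from the RefSeq start, the match lay 100 to 92 bases before it in Csn1s1, 93 to 85 bases before it in Csn2 and 145 to 137 bases before it in Glycam1. Of the 32851 promoters in the table, 2306 (7.02%) held the motif in the same window. TATAAA was in none of the 6 and in 12.37% of all promoters. A match describes these letters and does not show binding.

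The milk genes took between 0.000326% and 14.9% of all counts in a tumor, with a median of 0.649% over the 18 tumors. Totals were even, from 33210207 to 40974130 rounded expected counts. In 5 tumors the 8 genes took at least 5% of the counts: Cbfb(het) 8, 2, 4 and 6, and Cbfb(wt) 3. In 7 tumors they took less than 0.2%. In TPM, which is scaled per gene length and to the same total in every tumor, the 8 genes made up 22.0% of Cbfb(het) 8 and 20.7% of Cbfb(het) 2. The plot of summed share by tumor shows the order used below.

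**Figure D1:**
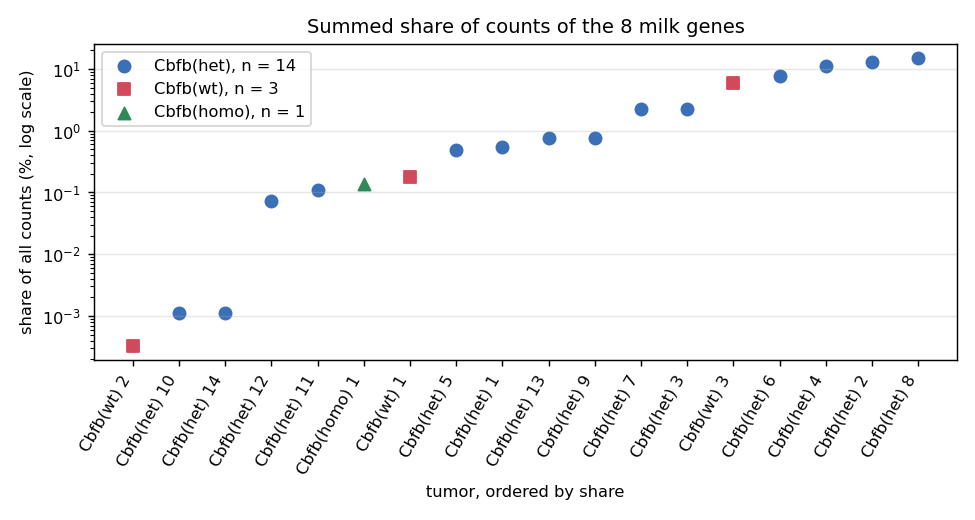
Share of all rounded expected counts (percent, log axis) taken by the 8 milk genes in each of 18 tumors, ordered from low to high, with color and shape for the Cbfb label. The 3 lowest tumors lie at or below 0.00113%, the next lies at 0.0733%, and the 5 highest lie between 5.94% and 14.9%.

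The low end was made of 3 tumors that stood apart from the rest, Cbfb(wt) 2 at 0.000326%, Cbfb(het) 10 at 0.00111% and Cbfb(het) 14 at 0.00113%. Epcam, an epithelial adhesion molecule, was at 5.60, 26.4 and 27.2 TPM there and at 75.1 TPM or more in the other 15. The 15 epithelial markers summed to 147, 265 and 269 TPM in the 3 tumors, against a median of 4607 TPM over all 18. The 11 mesenchymal markers summed to 12000, 6333 and 6302 TPM, against a median of 765 TPM. High mesenchymal sums were not particular to these tumors. Cbfb(het) 1 and Cbfb(het) 12, at 0.547% and 0.0733% of counts, had 7724 and 6495 TPM, with epithelial sums of 816 and 1327 TPM. In bulk tissue, fewer milk-producing cells and less milk RNA per cell cannot be told apart. Libraries of Cbfb(het) 10 and 14 were also closer to each other than any other pair: their counts differed by a chi-square of 4.18 per degree of freedom over 16196 genes, against 85.9 for the next closest pair, Cbfb(het) 2 and 8. They differed by more than counting noise, which does not show that they come from separate tumors; the series design gives each its own mouse, and they were counted as 2. Whether they share a source was not tested. Without Cbfb(het) 14, no gene was called between the genotypes, and the median log2 fold change of the milk genes was 1.61 in place of 1.502.

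The milk genes did not scale together along this order. Csn3 was present almost throughout, Csn1s1, Csn2 and Lalba were present in the same 15 tumors, and Csn1s2a, Wap, Glycam1 and Csn1s2b were each present in fewer. At 10 TPM or more, Csn3 was found in 17 tumors, Csn1s1, Csn2 and Lalba in 15, Csn1s2a in 13, Wap in 12, Glycam1 in 11 and Csn1s2b in 5. Peak level did not give this order: Lalba reached only 1610 TPM yet passed 10 TPM in 15 tumors, whereas Csn1s2a reached 61049 TPM and passed it in 13.

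For each gene, 1 cut point along the ordered tumors separated those at 10 TPM or more from those below, with 3 exceptions among the 144 gene and tumor placements. Csn1s2a accounted for 2 of them and Wap for 1, all among Cbfb(het) 12, Cbfb(het) 11, Cbfb(homo) 1 and Cbfb(wt) 1. There were 4 exceptions at 1 TPM and 5 at 100 TPM. With tumors ordered by the mean log2 CPM of the 8 genes, which weights the genes equally, 8 tumors changed rank, by at most 3 places, and no exception remained at 10 TPM, with 3 at 100 TPM. Among the 15 tumors without low Epcam the exceptions were 3 of 120. The order is drawn from the same values as the cut points, so it is a description.

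**Figure D2:**
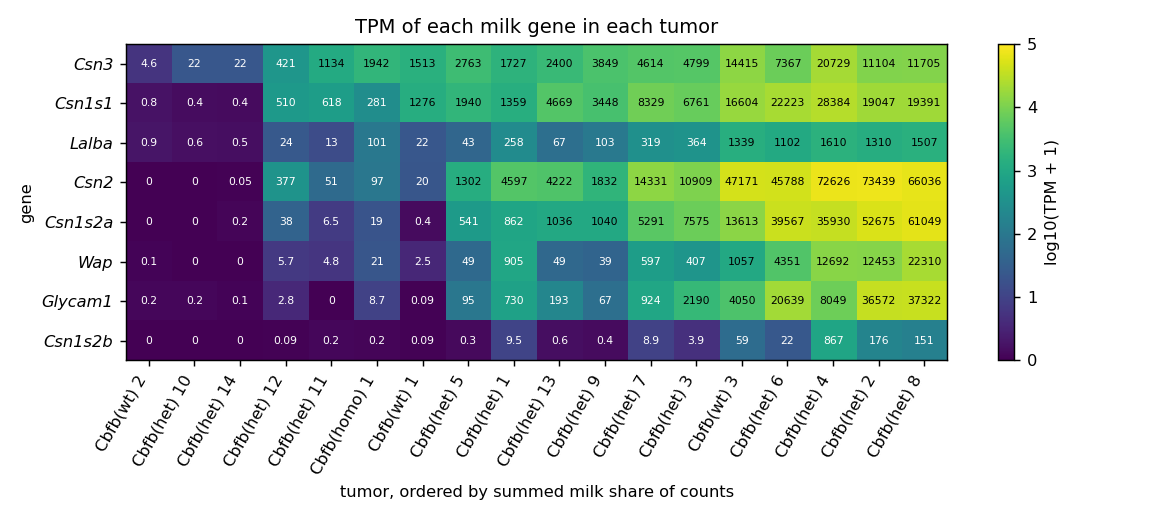
TPM of the 8 milk genes (1 gene per line) in 18 tumors ordered by summed milk share; color is log10(TPM + 1) and the printed number is TPM. Csn3 and Csn1s1 are at 1513 and 1276 TPM in Cbfb(wt) 1, where Csn1s2a, Wap and Glycam1 lie below 3 TPM.

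Csn3, the micelle-stabilizing kappa-casein, was the most widely kept member. Over the 14 Cbfb(het) tumors it ranged from 21.6 TPM to 20729 TPM with a median of 3306 TPM. The Cbfb(wt) tumors had 1513, 4.64 and 14415 TPM, and the Cbfb(homo) tumor 1942 TPM. The genotypes overlapped, and the only tumor below 10 TPM was Cbfb(wt) 2. In the 3 tumors low in Epcam, Csn3 was the largest part of what milk RNA there was, at 69.9%, 94.4% and 94.4% of the summed milk TPM. It still had 93, 387 and 411 counts there, while every other milk gene had at most 22.

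Csn1s1, the alpha-S1 casein, was already high in the middle of the order and spread less above it than most members. Its Cbfb(het) tumors ran from 0.40 TPM through a median of 4058 TPM to 28384 TPM. In Cbfb(wt) tumors the values were 1276, 0.75 and 16604 TPM, and the Cbfb(homo) tumor had 281 TPM. Every tumor outside the 3 low-Epcam ones exceeded 100 TPM, and the genotypes overlapped. Csn1s1 was the highest milk gene by TPM in only 2 tumors, whereas Csn2 led in 8 and Csn3 in 8.

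Csn2, the beta-casein, had one of the widest ranges. It was listed at 0 in Cbfb(wt) 2 and Cbfb(het) 10 and had 1 count in Cbfb(het) 14. Cbfb(het) tumors otherwise ran up to 73439 TPM, where it held 2051752 counts in Cbfb(het) 2, and their median was 4410 TPM. In Cbfb(wt) tumors 1, 2 and 3 it was at 20.5, 0 and 47171 TPM, and in the Cbfb(homo) tumor at 97.0 TPM. It made up 0.72% of the summed milk TPM in Cbfb(wt) 1, 27.3% in Cbfb(het) 12 and 48.0% in Cbfb(wt) 3.

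Csn1s2a, an alpha-S2 casein, reached 10 TPM in fewer tumors than Csn2. Cbfb(het) tumors ran from 0 through a median of 1038 TPM to 61049 TPM. The Cbfb(wt) tumors had 0.42, 0 and 13613 TPM, and the Cbfb(homo) tumor 18.6 TPM. In Cbfb(het) 8 it was 27.8% of the summed milk TPM, close in level to Csn2 at 66036 TPM. Its neighbour Csn1s2b was far lower: it reached 867 TPM in Cbfb(het) 4 and passed 10 TPM in only 5 tumors. In the tumors with at least 1 TPM of Csn1s2b, Csn1s2a exceeded it by 41.4-fold in Cbfb(het) 4 to 1927-fold in Cbfb(het) 3.

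The whey genes differed from each other. Wap ranged from 0 to 22310 TPM in Cbfb(het) tumors with a median of 228 TPM, stood at 2.53, 0.12 and 1057 TPM in the Cbfb(wt) tumors and at 20.9 TPM in the Cbfb(homo) tumor. Lalba ran from 0.53 to 1610 TPM in Cbfb(het) tumors with a median of 181 TPM, with 21.9, 0.91 and 1339 TPM in Cbfb(wt) tumors and 101 TPM in the Cbfb(homo) tumor. Lalba was present in all 15 tumors outside the low-Epcam ones at 13.3 TPM or more, while Wap was below 10 TPM in 3 of them. Lalba nevertheless stayed between 0.53% and 4.09% of the summed milk TPM in those 15, whereas Wap reached 10.2% in Cbfb(het) 8.

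Glycam1 was found in fewer tumors and was abundant in the highest of them. Cbfb(het) tumors had 0 to 37322 TPM with a median of 462 TPM, Cbfb(wt) tumors had 0.09, 0.22 and 4050 TPM, and the Cbfb(homo) tumor had 8.69 TPM. All 11 tumors from Cbfb(het) 5 upward passed 10 TPM and none of the 7 below did. It made up 17.7% of the summed milk TPM in Cbfb(het) 2 and 17.01% in Cbfb(het) 8. The 11 markers of high endothelial venules and lymph nodes, the other known source of Glycam1, summed to 2.96 to 87.9 TPM. Defining markers among them were near 0 in every tumor: Chst4 was at most 0.08 TPM, Madcam1 0.48 TPM and Ms4a1 0.12 TPM.

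**Figure D3:**
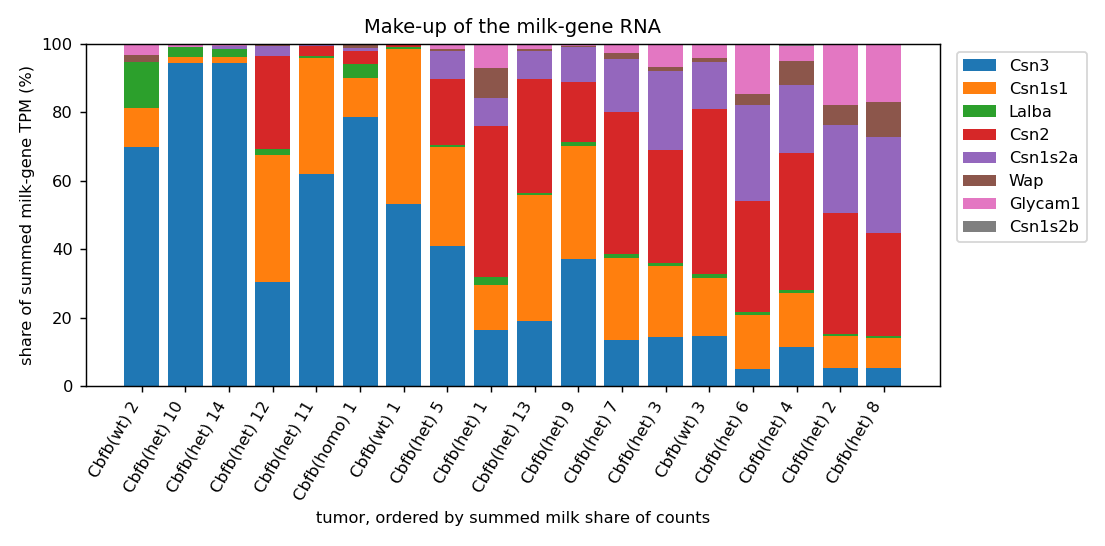
Each bar divides the summed TPM of the 8 milk genes in a tumor into percent per gene, with tumors ordered by summed milk share of counts. Csn3 goes from 94.4% in Cbfb(het) 10 to 5.33% in Cbfb(het) 8, while Csn1s2a and Glycam1 reach 27.8% and 17.01% there.

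Neighbours in the order differed in which caseins they held. Cbfb(wt) 1 and Cbfb(het) 5 stood next to each other at 0.179% and 0.496% of counts. Csn1s1 was 1.52-fold, Csn3 1.83-fold and Lalba 1.96-fold higher in TPM in Cbfb(het) 5. Csn2 was 63.5-fold higher, Wap 19.5-fold, and Csn1s2a had 12080 counts against 8. Glycam1 had 1221 counts against 1. Cbfb(wt) 1 thus held Csn1s1 and Csn3 at 1276 and 1513 TPM with Csn2 at 20.5 and Lalba at 21.9 TPM and the other 4 members below 3 TPM, and its Epcam, at 616 TPM, was among the higher values. These are single tumors with no replicate.

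Pairs farther apart in the order were also compared. From Cbfb(wt) 1 to Cbfb(wt) 3, both of 1 genotype, Csn3 was 9.53-fold and Csn1s1 13.01-fold higher in TPM, while Lalba was 61.1-fold and Csn2 2301-fold higher. From Cbfb(het) 5 to Cbfb(het) 8, Csn3 was 4.24-fold, Csn1s1 9.99-fold and Lalba 35.1-fold higher. Csn2 was 50.7-fold, Csn1s2a 113-fold, Glycam1 391-fold and Wap 453-fold higher over the same pair, and Csn1s2b had 2987 counts against 6. Lalba thus stood with Csn3 and Csn1s1 in the first pair but not in these. Between these tumors the summed share went from 0.496% to 14.9%.

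**Figure D4:**
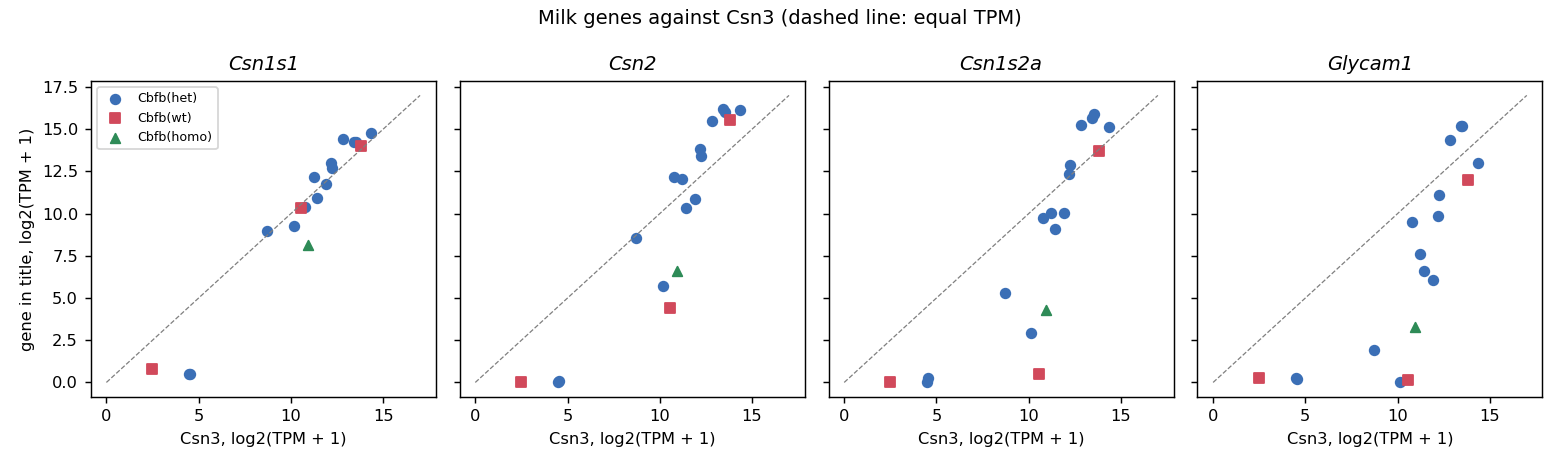
Csn1s1, Csn2, Csn1s2a and Glycam1 (vertical axes) against Csn3 (horizontal axes), all as log2(TPM + 1), 1 point per tumor. In the 15 tumors without low Epcam, Csn1s1 lies between 0.145 and 3.02 times Csn3, whereas the other 3 genes go from far below the dashed line of equal TPM to near or above it.

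Over the 15 tumors without low Epcam, the ratio of Csn1s1 to Csn3 in TPM ranged from 0.145 to 3.02 with a median of 1.21, a 20.8-fold spread. Lalba to Csn3 spread 12.8-fold, from 0.0117 to 0.150. Csn2 to Csn3 spread 488-fold, Wap to Csn3 1140-fold, and Csn1s2a to Csn3 from 0.000278 to 5.37. Ranks among the members nevertheless ran together: Spearman's rho of a member with the summed CPM of the other 7 was 0.92 to 0.98 over 18 tumors and 0.92 to 0.96 over the 15. These are descriptions of values that share library and depth.

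The slope of a member's log2(TPM + 1) on the log2 summed TPM of the other 7 shows how steeply it changed. Over the 15 tumors it was 0.45 for Csn3, 0.75 for Csn1s1 and 0.88 for Lalba. It was 1.11 for Csn1s2b, 1.49 for Csn2, 1.57 for Wap, 1.89 for Csn1s2a and 1.99 for Glycam1. A slope of 1 means proportional change, so on this scale Csn3 changed least over these 15 tumors and Glycam1 most. Each slope is on a different sum, since the gene itself is left out. Csn1s2b reached 1 TPM in only 8 of all 18 tumors, so the added 1 flattens its slope. Its slope over the 15 tumors was not computed with 0.1 added. With the 3 low-Epcam tumors kept, the slopes were 0.52 for Csn1s2b, 0.60 for Csn3, 0.72 for Lalba and 0.98 for Wap. They were 1.02 for Csn1s1, 1.10 for Glycam1, 1.23 for Csn1s2a and 1.28 for Csn2. On log2(TPM + 1), both ends of the order thus changed with those tumors, with Csn1s2b lowest and Csn2 steepest over 18. The low end over 18 also depended on the value added to TPM. On log2(TPM + 0.1), Csn3 was lowest at 0.58, below Csn1s2b at 0.77, and Csn2 was still steepest at 1.51.

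Cbfb genotype was then compared, the only comparison of replicated groups that the labels allow. No milk gene passed the test between the 14 Cbfb(het) and the 3 Cbfb(wt) tumors. None of the 8 passed an adjusted p of 0.05 in edgeR's quasi-likelihood test with Benjamini-Hochberg adjustment, and the share of all genes called was 0%. At an unadjusted p under 0.05 the test had 623 of 18475 genes (3.37%) and none of the 8. DESeq2 and limma-voom also called none, with 932 and 487 genes at an unadjusted p under 0.05. DESeq2 gave no p-value for Csn1s2b, so that member was not assessed there. All 8 had an edgeR adjusted p of 0.999.

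Estimates leaned to higher values in Cbfb(het), but the standard error exceeded the estimate for every member except Wap. The log2 fold change was 3.92 ± 3.34 (SE) for Wap, 2.95 ± 3.37 for Glycam1, 2.57 ± 2.91 for Csn1s2b and 2.13 ± 3.06 for Csn1s2a. It was 0.87 ± 2.08 for Csn1s1, 0.87 ± 2.63 for Csn2, 0.45 ± 1.88 for Lalba and 0.30 ± 1.58 for Csn3. The estimate was positive for 8 of 8 members and for 53.2% of all genes tested, with medians of 1.502 and 0.03. The 8 genes rise and fall together across tumors, so they are not 8 separate observations.

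The spread within genotype was wider than the difference between them. Csn2 was at 9.68 ± 6.61 log2 CPM in Cbfb(het) (SD, n = 14) and at 4.68 ± 9.54 in Cbfb(wt) (SD, n = 3). Csn3 was at 10.04 ± 3.21 and 7.91 ± 6.03. Both Cbfb(wt) extremes fell at opposite ends of the series, 1 at the lowest milk share of all and 1 among the 5 highest. The size of the estimates rested on Cbfb(wt) 3, while no milk gene was called with or without it. Leaving it out gave a median log2 fold change of the 8 of 11.49. Csn1s2a, Csn2 and Glycam1 then had unadjusted edgeR p-values of 0.0208, 0.0467 and 0.0331, with an adjusted p of 0.868 each. The median was 0.92 without Cbfb(wt) 2, 0.97 without Cbfb(wt) 1 and 0.84 without Cbfb(het) 4. Without Cbfb(wt) 2 the sign of Csn3 turned to -0.28. The limma-voom estimate for Csn2 was 5.80 in place of 0.87. All 9 adipocyte markers were also higher in Cbfb(het), with a median log2 fold change of 5.16 and unadjusted p under 0.05 for each and none called; their sum was 21.7 to 1623 TPM in Cbfb(het) and 24.9, 96.7 and 59.0 TPM in Cbfb(wt) 1, 2 and 3. Their part in the milk values was not tested.

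**Figure D5:**
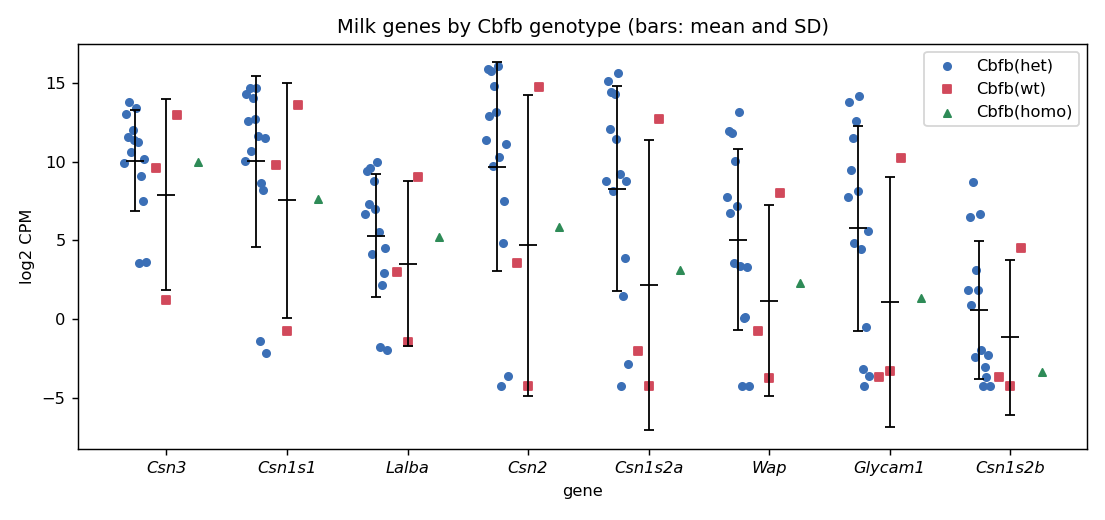
Each point is 1 tumor's log2 CPM (prior count 2) for a milk gene, by Cbfb label, with bars for the mean and SD of Cbfb(het) (n = 14) and Cbfb(wt) (n = 3). The genotypes overlap for all 8 genes and the Cbfb(wt) points spread widely. For Wap and Csn1s2b, Cbfb(wt) reaches 7.98 and 4.51, whereas Cbfb(het) reaches 13.11 and 8.72.

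The single Cbfb(homo) tumor had no replicate and entered no test. It ranked sixth from the low end, at 0.136% of counts, inside the range of the other 17. Csn3 was 78.6% of its summed milk TPM. Set beside Cbfb(wt) 1, the tumor just above it, its Csn3 was 1.28-fold and its Csn2 4.73-fold higher in TPM, while Csn1s1 was 4.54-fold higher in Cbfb(wt) 1. Its Csn1s2a had 370 counts against 8 and its Glycam1 103 counts against 1.

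Other genes of the lactation program were ranked by Spearman's rho with the log2 summed CPM of the 8 milk genes, as a description with no test; over 18 tumors 19.4% of the 18475 genes had a rho of at least 0.5 and 18.4% of at most -0.5. Over the 15 tumors without low Epcam these were 15.3% and 12.9%. Of 24 further milk and lactation genes, 21 had a rho of at least 0.5 over 18 tumors and 19 over 15, with medians of 0.85 and 0.80. Folr1, a folate receptor, had 0.98 and 0.96, and Cel, the bile-salt-stimulated lipase of milk, 0.96 and 0.93. Wfdc18, a whey acidic protein relative, had 0.94 over 18 tumors and ran from 7.13 TPM to 16140 TPM. Pthlh, the parathyroid hormone-related peptide, was at -0.51 over 18 tumors and -0.16 over 15, and Slc30a4, a zinc transporter of milk, at -0.05 and 0.47.

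RNA of the prolactin, STAT5 and lactogenic regulators differed in the sign of rho. The list holds inhibitors such as Socs1 beside activators, so mixed signs do not describe the pathway, whose activity was not tested. Of 23 regulators, 22 passed the filter, 9 had a rho of at least 0.5 and 6 of at most -0.5 over 18 tumors, and 6 and 3 over 15. Elf5, an alveolar transcription factor, had the highest rho among them, 0.94 over 18 tumors and 0.89 over 15, and ranged from 0.73 to 789.7 TPM. Stat5a had 0.86 and 0.83, and Stat5b 0.75 and 0.76. Upstream, Jak2 had -0.35 and -0.40. The prolactin receptor Prlr had 0.30 over 18 tumors and -0.21 over 15, so its sign depended on the 3 low-Epcam tumors. Socs1, an inhibitor of cytokine signalling, was lowest of the regulators at -0.83, followed by Cav1, which encodes caveolin 1, at -0.80. Prl itself did not pass the filter and reached at most 0.91 TPM.

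Cell type markers were set beside the milk level in the same way. Of 15 epithelial genes, 14 had a rho of at least 0.5 over 18 tumors and 8 over 15, and Epcam had 0.76 and 0.59. Of 11 mesenchymal genes, 10 had a rho of at most -0.5 over 18 tumors and 10 over 15. Leukocyte markers (8 genes) had medians of -0.43 and -0.65, and 6 of 6 endothelial markers were at or below -0.5 over 18 tumors but 2 of 6 over 15. Basal and myoepithelial (12 genes), hormone-sensing (12) and luminal progenitor (11) lists had medians of -0.17, 0.08 and 0.32 over 18 tumors and of -0.30, -0.28 and -0.11 over 15. The adipocyte list (9) had 0.16 and -0.21, proliferation (8) 0.32 and 0.36, and the 6 venule and lymph node genes that passed the filter -0.45 and -0.37. The sign of the hormone-sensing, luminal progenitor and adipocyte medians thus turned without the 3 low-Epcam tumors. The part of cell makeup in the milk levels was not tested. Cbfb(het) 1 went against the epithelial trend: its epithelial markers summed to 816 TPM, its mesenchymal ones to 7724 TPM and its Epcam was at 75.1 TPM, yet Csn2 was at 4597 TPM and Wap at 905 TPM, above Wap in each of the 4 tumors that followed it in the order.

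Among all genes whose log2 CPM averaged 1 or more, the 10 named genes with the highest rho over 18 tumors were Folr1, Slc45a3, Tmc5, Cel, Chrdl2, Saa2, Atp2c2, Scd1, Saa1 and Lmf1, from 0.98 to 0.95. Over 15 tumors they were at 0.96 to 0.92. Atp2c2 encodes a secretory pathway calcium pump and Scd1 a fatty acid desaturase. Saa1 and Saa2, serum amyloid A genes, are near-identical copies that reads can be split between, so their separate values are uncertain; they reached 10370 and 8978 TPM in Cbfb(het) 8. The 5 genes with the lowest rho were Sept2, Dubr, Tbc1d2b, Rcn1 and Maf, from -0.95 to -0.93. The Sept2 value is uncertain, since the annotation holds a second, overlapping model of that symbol.

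Most other genes listed around the caseins stayed below 1 TPM. Within 500 kb of the 266458 bases from Csn1s1 to Csn3, 49 other annotated genes were listed, 21 of them protein coding. Below 1 TPM in every tumor were 44 of the 49. The share of all genes below 1 TPM was not computed, so this is not shown to be particular to the locus. Of all 55450 genes, 18475 passed the filter on low counts. Amtn, which encodes the enamel protein amelotin, was the only one to reach 10 TPM, at most 48.1 TPM in Cbfb(het) 11, and its rho with the milk level was -0.45 over 18 tumors and -0.71 over 15. Of the other neighbours, 2 passed the filter on low counts, named after their values were seen: Sult1d1, a sulfotransferase gene of at most 2.20 TPM, had 0.91 and 0.85, and Odam, a gene inside the span of at most 1.85 TPM, had 0.80 and 0.76. Of the 8 other genes inside the span none reached 10 TPM, and the lowest peak among the 8 milk genes was 867 TPM, that of Csn1s2b.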

How the data were processed

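RNA of 18 tumors was sequenced from TruSeq stranded mRNA libraries, per the labels' protocols. For each tumor the authors deposited expected counts (estimated by RSEM, not normalized) and TPM, per the file headers. STAR 2.7.0f, RSEM 1.3.1 and mm10 are named in the submitters' processing notes; no source used here gives the strand setting or annotation release. All 55450 gene IDs matched GENCODE M21. Expected counts were rounded. Cbfb(het) and Cbfb(wt) tumors were compared with edgeR 4.0.16 in R 4.3.3 (filterByExpr, TMM factors, robust quasi-likelihood test, Benjamini-Hochberg over all genes tested, threshold 0.05); a standard error is the log2 fold change over the square root of F. DESeq2 1.42.0 and limma-voom 3.58.1 were alternatives. Levels are log2 CPM with a prior count of 2, and levels between genes were compared in TPM. Genes were named as follows: all members, Epcam, the 10 highest and 5 lowest rho, up to 3 highest and 2 lowest per list, and 5 regulators; other genes were named after their values were seen. Members and lists were chosen with earlier results of these data known. The comparison excluding tumors with Epcam under 30 TPM was added after seeing the data. Sequences are from RefSeq; no protein comparison was made. Replicates are separate mice per the series design.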

Additional observations from a re-analysis of the deposited data

How the results depend on the processing

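No gene was called between Cbfb(het) and Cbfb(wt) under any alternative except without a low-count filter, where 1 gene, Tex11, was called; leaving out each tumor in turn gave 0 to 0 genes and 0 to 0 milk genes. The log2 fold change of Csn3 turned to -0.07 without Cbfb(het) 4, -0.15 without Cbfb(wt) 1, -0.28 without Cbfb(wt) 2 (the only tumor below the largest Epcam gap) and -0.12 without the 3 low-Epcam tumors. That of Lalba turned to -0.11 without Cbfb(wt) 1 and -0.13 without Cbfb(wt) 2. Without Cbfb(wt) 3 they were 3.21 for Csn3 and 5.88 for Lalba. Exceptions to the order were 5 at 100 TPM and, at 10 TPM, 0 with tumors ordered by mean log2 CPM (3 at 100 TPM in that order). Genes with a rho of at least 0.5 numbered 1197 on log2(TPM + 1), against 3575; the cause was not tested. The rho of Prlr was -0.21 over 15 tumors and 0 without the 2 tumors farthest from the median milk level, and its Pearson r was 0.70. The rho of Stat5b was 0.39 on log2(TPM + 1). The slopes of Csn1s1, Csn1s2a, Csn1s2b, Wap and Glycam1 moved without the 3 low-Epcam tumors, to the values given above, and that of Csn1s2b was 0.77 with a pseudocount of 0.1. Of the other values, 243 of single genes and 63 of the summary results were counted as unchanged. For a fold change this did not require its size to hold. Without Cbfb(wt) 3, values so counted were 16.53 for Csn1s2a against 2.13 and 16.2 for Glycam1 against 2.95. Those of Wap and Csn2 were 12.11 against 3.92 and 11.49 against 0.87. The rho of Jak2, also counted as unchanged, was -0.52 on log2(TPM + 1) against -0.35, past the threshold of -0.5. Csn1s2b, also counted so under DESeq2, had no p-value there. No paired analysis was possible because the labels tie no tumor of a genotype to a tumor of another; the numbers used here only name tumors. Median log2 fold changes of the milk genes ran from 0.84 to 11.49 when each tumor was left out. With 3 Cbfb(wt) tumors, the width of the errors limits what can be detected.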

Other observations

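The highest milk tumors did not share 1 profile. Cbfb(het) 4, at 11.02% of counts, had the most Csn3 (20729 TPM) and the most Csn1s2b (867 TPM), while Cbfb(het) 2, at 13.04%, had 4.54-fold more Glycam1 in TPM. Csn3 was 1.87-fold and Csn1s2b 4.94-fold higher in Cbfb(het) 4 than in Cbfb(het) 2. Among other lactation genes, Lao1, an L-amino acid oxidase of mouse milk, was at 508 TPM in Cbfb(het) 4 against 124 TPM in Cbfb(het) 8 and 117 TPM in Cbfb(het) 2, and Olah, a thioesterase that releases medium-chain fatty acids, was at 173 TPM there. Prlr was also highest in Cbfb(het) 4, at 37.6 TPM. These are values of single tumors, named after they were seen.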
